A study of Mus musculus with 10 samples.

Results

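The messenger RNAs of 10 genes of antigen presentation by the major histocompatibility complex (MHC) were followed in cardiac endothelial cells (ECs): H2-K1, H2-D1, B2m, Tap1, Tap2, H2-Aa, H2-Ab1, H2-Eb1, Cd74 and Ciita. The 10 genes were fixed by name from the steps of the pathway, with earlier results of these data known. Each was found among the 46983 gene identifiers of the count table by its Ensembl number. All 10 had enough reads to be tested, as had 15949 genes in total. Cells were taken from hearts of wild-type male C57BL/6J mice that were assigned to a diet at 8 weeks of age and stayed on it for 14 days. The 5 control mice received a diet with 11.6% of its calories as fat (D12359), and the 5 ketogenic mice one with 89.5% of its calories as fat (D17011501). ECs were pulled out of digested hearts with magnetic beads carrying CD31 antibodies, so any CD31-bearing cell, leukocytes included, could be captured. Each mouse gave one library.

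MHC class I molecules sit on nearly all cells and show CD8 T cells peptides made from proteins of the cell's own cytosol. Their heavy chains (H2-K1, H2-D1) pair with beta-2-microglobulin (B2m) and are loaded with peptides that the TAP transporter (Tap1, Tap2) pumps into the endoplasmic reticulum. MHC class II molecules, made of an alpha and a beta chain (H2-Aa with H2-Ab1, and H2-Eb1), show peptides of ingested material to CD4 T cells. They are kept free of early peptides by the invariant chain (Cd74), and their genes are switched on by the coactivator CIITA (Ciita). B cells and dendritic cells carry class II at all times, and many macrophages carry it. ECs carry class I and can gain class II when interferon gamma reaches them.

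None of the 10 genes was called between the diets (edgeR quasi-likelihood test, adjusted p under 0.05 over all genes tested), against 1.34% of all tested genes called in either direction and 0.527% called lower on the ketogenic diet. The log2 fold change, ketogenic minus control, was below 0 in 10 of the 10 genes, against 51.4% of all tested genes. Its median was -0.11 over the 10 genes and -0.01 over all tested genes. At an unadjusted p under 0.05, 3 of the 10 (H2-D1, H2-Aa and Ciita) were lower, against 9.26% of all tested genes. In no gene did the normalized counts of the diets separate, whereas 1.94% of all tested genes lay lower in every ketogenic mouse than in any control mouse. The 10 genes share libraries and scaling, so their common sign is not 10 separate observations. B2m, H2-K1, Cd74, H2-Aa and H2-D1 used at least 75% of the places where a read can start, as described below. Of all tested genes that did so, 90.7% had a log2 fold change below 0.

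Promoter sequences from RefSeq (build GRCm38.p6) were matched for 6 of the 10 genes, with none used here for Tap2, H2-Ab1, Cd74 and Ciita. The promoters of MHC genes are known for an arrangement in which a site for RFX and CREB-type factors stands at a fixed distance before an inverted CCAAT box (ATTGG), the site of NF-Y. CIITA at class II genes and NLRC5 at class I genes are recruited by these factors and do not bind DNA themselves. Stretches upstream of the start are shown for the 5 members that held both boxes at this spacing, for H2-DMb1, a class II accessory gene that also held them, and for Tap1, which did not. Sequences read 5′ to 3′ on the strand of the gene. Capitals mark TGACG or TGATG, the box ATTGG and, in H2-K1 and H2-D1, the kappa B-type motif GGGGATTCC.

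H2-K1, chr17:34000348-34000470, minus strand: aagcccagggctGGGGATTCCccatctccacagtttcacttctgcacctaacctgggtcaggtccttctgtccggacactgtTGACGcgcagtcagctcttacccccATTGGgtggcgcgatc
H2-D1, chr17:35262911-35263034, plus strand: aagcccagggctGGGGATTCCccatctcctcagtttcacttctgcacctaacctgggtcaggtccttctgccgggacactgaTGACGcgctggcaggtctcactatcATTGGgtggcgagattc
B2m, chr2:122147577-122147650, plus strand: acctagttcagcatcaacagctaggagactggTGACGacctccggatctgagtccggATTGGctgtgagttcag
H2-Aa, chr17:34287855-34287929, minus strand: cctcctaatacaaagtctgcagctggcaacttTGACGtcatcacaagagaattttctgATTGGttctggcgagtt
H2-Eb1, chr17:34305749-34305824, plus strand: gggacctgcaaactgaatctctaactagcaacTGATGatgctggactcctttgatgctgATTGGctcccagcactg
H2-DMb1, chr17:34153073-34153146, plus strand: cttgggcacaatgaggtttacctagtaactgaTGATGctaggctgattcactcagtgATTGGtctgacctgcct
Tap1, chr17:34187438-34187506, plus strand: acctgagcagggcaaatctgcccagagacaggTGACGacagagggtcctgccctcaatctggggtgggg

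In H2-K1, H2-D1 and B2m 20 bases lay between the boxes, in H2-Aa 21 and in H2-Eb1 22. The motif TGANG followed after 20 to 22 bases by ATTGG was found on either strand in 5 of the 6 members with a sequence, and in 0.819% of 32851 promoter windows cut to the same 250 bases before the start. The RefSeq start of H2-D1 lies inside the gene as GENCODE M21 draws it, so its stretch overlaps that gene model. It was also found in 6 of 42 other genes of the pathway, namely H2-Q6, H2-Q7, H2-M3, H2-DMb1, H2-DMb2 and H2-Eb2. The pattern was written down after these sequences had been read, so the counts describe the shown promoters and test nothing. TGACG is one form of TGANG. Each box alone was common, with ATTGG in 33.8% and TGACG in 17.8% of the windows. GAANNGAAA, the core of the interferon-stimulated response element, was found on the reverse strand of H2-K1 and H2-D1 (6.31% of the windows on either strand). The motif GGGGATTCC, which overlaps none of the others, was found in the same 2 members (0.213% of the windows). Over 123 compared bases the shown stretches of H2-K1 and H2-D1 were identical at 110.

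Among the class I chains, B2m (ENSMUSG00000060802.8, chr2:122147686-122153083, plus strand) had the highest deposited RPKM of the 10 genes, a value that scales reads to the length of the gene and to the counted reads of the library, at 183 ± 7.07 on the control diet and 175 ± 8.10 on the ketogenic diet (SD, n = 5 each). H2-D1 (ENSMUSG00000073411.11, chr17:35262730-35267499, plus strand) reached 94.2 ± 2.74 and 88.9 ± 4.96 RPKM, and H2-K1 (ENSMUSG00000061232.15, chr17:33996017-34000347, minus strand) 42.3 ± 1.66 and 40.4 ± 1.92 RPKM. The RPKM table divides the reads of H2-K1 by 8213 bases, whereas its principal protein-coding transcript in GENCODE M21 has 1619. The principal transcript of a gene is the one with the APPRIS principal tag, and the longest where several or none carried it. Scaled to that transcript, H2-K1 had the highest level of the 10 genes, at 210 RPKM averaged over the 10 mice, before B2m at 179. The order of the class I chains therefore depends on the gene length used, whereas differences between mice do not.

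B2m, the light chain of every class I molecule, had 1926, 1723, 1853, 1897 and 1808 normalized counts (reads scaled between mice by the TMM method) in control mice 1 to 5. In ketogenic mice 1 to 5 it had 1770, 1868, 1725, 1722 and 1642. The diets overlapped, with 2 ketogenic mice below all control mice. Ketogenic minus control, the log2 fold change was -0.08 ± 0.04 (SE, adjusted p = 0.383), and a two-sided exact permutation test of the means gave p = 0.103.

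H2-K1, a class I heavy chain, had 4261, 3809, 4107, 4192 and 3988 normalized counts in control mice 1 to 5. Its values in ketogenic mice 1 to 5 were 3869, 4146, 3795, 3827 and 3632. Here too 2 ketogenic mice lay below all control mice, while ketogenic mouse 2 lay above 3 of the 5 control mice. Fitted by edgeR, the difference was -0.08 ± 0.04 on the log2 scale (adjusted p = 0.339; exact permutation p = 0.103).

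H2-D1, the other classical heavy chain of this strain, had 3572, 3316, 3447, 3495 and 3308 normalized counts in control mice 1 to 5. The ketogenic mice had 3279, 3476, 3118, 3169 and 2993. Here 4 of the 5 ketogenic mice lay below all control mice, and ketogenic mouse 2 lay above 3 control mice. The log2 fold change was -0.10 ± 0.04 with an unadjusted p of 0.0395 and an adjusted p of 0.253 in edgeR, and the exact permutation test gave p = 0.0476, where 0.00794 is the smallest p that 5 against 5 mice allow. On the unscaled counts the same permutation test gave p = 0.135 for H2-D1. Without control mouse 2 the permutation p was under 0.05 for 5 members (H2-K1, H2-D1, B2m, H2-Aa and Cd74). Without ketogenic mouse 2 it was so for 3 (H2-K1, H2-D1 and B2m), without control mouse 5 for H2-D1 and without ketogenic mouse 4 for Ciita. Without any of the other 6 mice it was so for no member. The share of all tested genes under this test is not given here. Control mouse 2 had the most reads of the control mice (12206734) and ketogenic mouse 2 the fewest of the ketogenic mice (11108020). Leaving out either therefore widens the difference in library size between the diets.

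**Figure D1:**
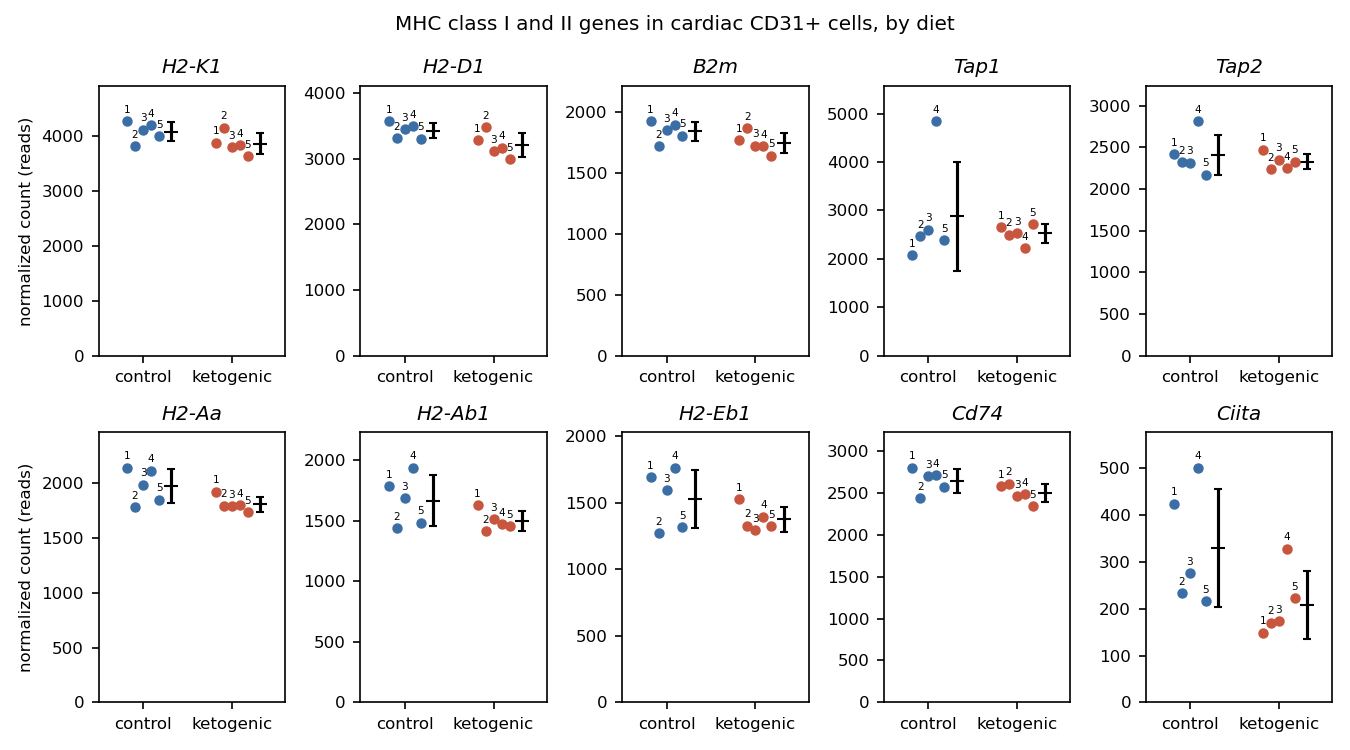
Normalized count (reads, axis from 0) of each member in each mouse, by diet; points are numbered by mouse and black bars give mean ± SD (n = 5). The diets overlap in every panel, and control mouse 4 stands apart in Tap1.

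The deposited counts of the most abundant members hardly varied between mice before scaling. B2m had 1783, 1807, 1790, 1802 and 1798 reads in the control mice and 1794, 1787, 1757, 1772 and 1802 in the ketogenic mice. Those of H2-K1 lay between 3865 and 3995, and those of Cd74 between 2495 and 2611. The variance of counts within a diet, divided by the mean, was 0.116 for B2m, 0.319 for H2-K1 and 0.566 for Cd74, below the 1 that random sampling of reads gives, and 1.44 for H2-D1. The mean of B2m amounted to 110% of the 1622 places at which a read of 50 bases can start on both strands of its 860 bases. On the principal protein-coding transcript it was 126% for H2-K1, 94.1% for Cd74, 87.4% for H2-Aa, 80.6% for H2-D1 and 67.7% for H2-Ab1. There it was 46.4% for Tap1, 44.6% for H2-Eb1, 34.9% for Tap2 and 2.24% for Ciita. No removal of reads with the same start is given in the sources used here.

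Normalized counts of these genes followed library size. Effective library sizes (total reads times TMM factor) averaged 11363824 reads on the control diet and 11899056 on the ketogenic diet, a log2 difference of 0.07 that lay within the spread between mice (exact permutation, two-sided p = 0.183). The log2 ratio of unscaled mean counts was -0.01 for B2m, -0.01 for H2-K1, -0.02 for Cd74 and -0.03 for H2-D1, against normalized log2 fold changes of -0.08, -0.08, -0.08 and -0.10. Across the 10 mice, log2 normalized counts were correlated with log2 effective library size. Pearson's r was -0.99 for B2m, -0.98 for H2-K1, -0.96 for Cd74 and -0.92 for H2-D1. It was -0.80 for H2-Aa, -0.68 for H2-Eb1, -0.64 for H2-Ab1, -0.44 for Ciita, -0.30 for Tap2 and -0.15 for Tap1. Library size is part of both measures. In 420 tested genes at least 75% of the start places of their principal protein-coding transcript were in use. Of these, 90.7% had a log2 fold change below 0, with a median of -0.06, and 0 were called. Of the 5451 genes with under 5% in use, 48.1% were below 0, with a median of 0.01. With such counts a difference in B2m, H2-K1 or Cd74 of the size seen is not detectable apart from library size. The same limit bears in lesser degree on H2-D1 and H2-Aa. Their log2 ratios of unscaled mean counts were -0.03 and -0.06, against normalized log2 fold changes of -0.10 and -0.13. A correction of counts for used start places took the gene lengths of the RPKM table. On these, H2-K1 used 24.2%, Cd74 65.6% and H2-Eb1 63.7% of the places. With it H2-K1 was at -0.09, H2-D1 at -0.12, Cd74 at -0.10 and H2-Eb1 at -0.23 on the log2 scale. None was called, and B2m could not be corrected. On its coding transcript H2-K1, at 126%, could not have been corrected either. The length used for H2-Eb1, 1184 bases, was shorter than its coding transcript of 1669.

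**Figure D2:**
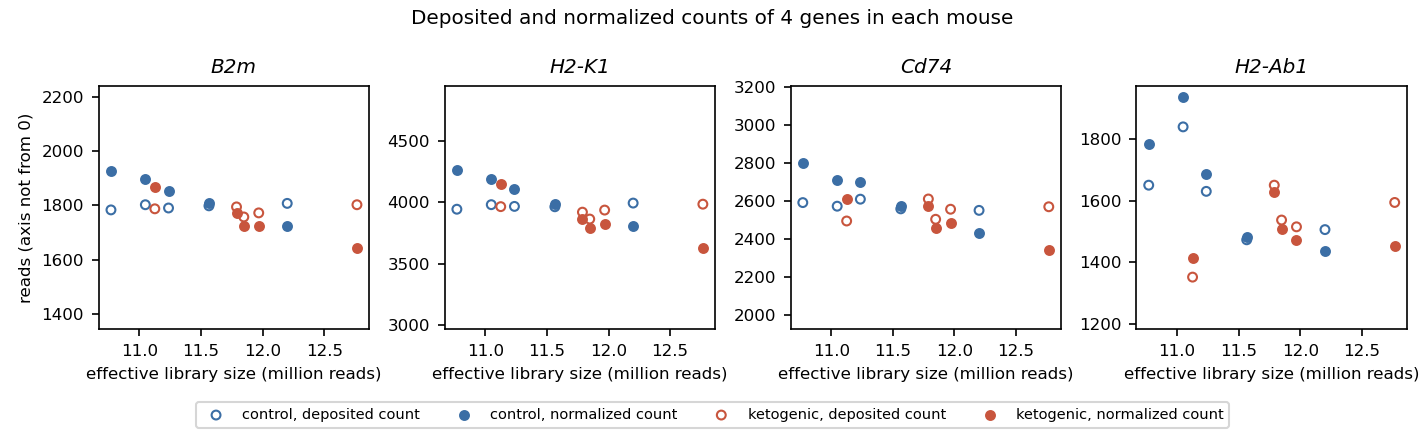
Deposited (open) and normalized (filled) counts of B2m, H2-K1, Cd74 and H2-Ab1 in each mouse against effective library size, by diet; the vertical axes span 25% on either side of the mean and do not start at 0. For B2m, H2-K1 and Cd74 the open points lie nearly level and the filled points fall with library size.

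The peptide transporter differed from the chains in that 1 mouse set its mean. Tap1 (ENSMUSG00000037321.17, chr17:34187553-34197225, plus strand), one of the paired TAP subunits, had 2084, 2468, 2602, 4842 and 2384 normalized counts in control mice 1 to 5, and 2652, 2501, 2535, 2228 and 2718 in ketogenic mice 1 to 5. Control mouse 4 lay far above all others, and the other 4 control mice and the 5 ketogenic mice overlapped. With all mice the log2 fold change was -0.19 ± 0.19 (adjusted p = 0.641; exact permutation p = 0.841), and without control mouse 4 it was 0.08 (adjusted p = 0.579). Tap1 shares exon sequence with Psmb9 on the opposite strand, and since the library kit did not record strand, 96.7% of its 50-base windows were unique to it.

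Tap2 (ENSMUSG00000024339.12, chr17:34203527-34216321, plus strand), its partner, had 2415, 2319, 2318, 2813 and 2170 normalized counts in the control mice. Ketogenic mice 1 to 5 had 2472, 2237, 2353, 2251 and 2330. Control mouse 4 was again the highest, and the remaining mice of both diets overlapped. For Tap2 the log2 fold change was -0.05 ± 0.06 (adjusted p = 0.725; exact permutation p = 0.643), and 0.02 without control mouse 4. Of its 50-base windows 88.4% were unique, the others being shared mainly with the overlapping gene Gm15821.

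Ratios within a library do not depend on scaling between mice, and 3 were tested. The log2 ratio of Tap1 to Tap2 RPKM averaged -0.78 ± 0.36 on the control diet and -0.85 ± 0.09 on the ketogenic diet (SD, n = 5 each), a difference of -0.08 (two-sided exact permutation p = 0.746, adjusted over the 3 ratios p = 0.746). On the linear scale control mouse 4 had 0.880 and the other control mice at most 0.574, and without it the log2 difference was 0.07. Scaled to the principal protein-coding transcripts the ratio was 1.01 to 2.01 over the 10 mice, above 1 in 10 of 10. Which subunit lay higher thus depends on the length used, while the difference between the diets does not. For H2-K1 to H2-D1 the log2 ratio was -1.15 ± 0.03 and -1.14 ± 0.02, a difference of 0.02 (exact permutation p = 0.286, adjusted p = 0.746). For H2-Aa to H2-Ab1 the diets differed by 0.02 on the log2 scale (exact permutation p = 0.595, adjusted p = 0.746), with linear ratios of 0.915 to 1.06 over the 10 mice. None of the 3 ratios differed between the diets beyond the spread between mice. The deposited counts of H2-K1 hardly varied between mice (3865 to 3995 reads), which limits what its ratio to H2-D1 can show.

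Among class II genes, the 3 chains had lower means on the ketogenic diet without passing the test. H2-Aa (ENSMUSG00000036594.14, chr17:34282744-34287823, minus strand), the alpha chain of the A molecule, had 2141, 1780, 1985, 2115 and 1850 normalized counts in control mice 1 to 5. The ketogenic values were 1923, 1795, 1790, 1802 and 1736. Control mice 1, 3 and 4 lay above all ketogenic mice, and control mice 2 and 5 among them. In edgeR the log2 fold change was -0.13 ± 0.05 (unadjusted p = 0.0394, adjusted p = 0.252; exact permutation p = 0.0794).

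H2-Ab1 (ENSMUSG00000073421.5, chr17:34257689-34269419, plus strand), the beta chain of the same molecule, had 1782, 1436, 1687, 1936 and 1482 normalized counts in the control mice and 1628, 1413, 1509, 1472 and 1452 in the ketogenic mice. The same 3 control mice lay above all ketogenic mice. Its log2 fold change was -0.15 ± 0.08 (adjusted p = 0.323; exact permutation p = 0.135).

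H2-Eb1 (ENSMUSG00000060586.10, chr17:34305867-34316674, plus strand), the beta chain of the E molecule, had 1691, 1275, 1593, 1764 and 1320 normalized counts in control mice 1 to 5, and 1526, 1329, 1296, 1397 and 1327 in the ketogenic mice. Once more control mice 1, 3 and 4 lay above all ketogenic mice, while control mouse 2 lay below them. Its log2 fold change was -0.15 ± 0.09 (adjusted p = 0.403; exact permutation p = 0.198). The alpha chain that would complete the E molecule, annotated as H2-Ea-ps, had 3 reads over the control mice and 1 over the ketogenic mice. C57BL/6 mice are known to lack this chain.

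Cd74 (ENSMUSG00000024610.14, chr18:60803848-60812652, plus strand), the invariant chain, had 2799, 2432, 2702, 2709 and 2574 normalized counts in the control mice. In ketogenic mice 1 to 5 the values were 2576, 2608, 2458, 2485 and 2342. Control mice 1, 3 and 4 lay above all ketogenic mice and ketogenic mouse 5 below all control mice, with the other mice of both diets overlapping. The log2 fold change was -0.08 ± 0.04 (adjusted p = 0.347; exact permutation p = 0.111). By deposited RPKM, Cd74 (110 over the 10 mice) and H2-Eb1 (105) followed B2m, with overlapping ranges, and H2-Aa (57.7) and H2-Ab1 (57.5) overlapped as well. Per principal protein-coding transcript the order was another, with Cd74 at 156, H2-Aa at 144, H2-Ab1 at 112 and H2-Eb1 at 74.6 RPKM. The summed RPKM of the 3 class II chains was 1.52 to 1.87 times that of the 2 class I heavy chains in the control mice and 1.45 to 1.75 times in the ketogenic mice. Scaled to the principal protein-coding transcripts, chosen after the data had been seen, this ratio was 0.897 to 1.07 in the control mice and 0.843 to 1.003 in the ketogenic mice. Which class lay higher thus depended on the length used.

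Ciita (ENSMUSG00000022504.9, chr16:10480059-10528418, plus strand), which overlaps Dexi on the other strand, had the widest spread of the class II members and the lowest level of all 10. Its normalized counts were 424, 233, 275, 501 and 216 in control mice 1 to 5. Ketogenic mice 1 to 5 had 149, 170, 173, 328 and 222. In 3 of the 5 ketogenic mice the value lay below every control mouse, and ketogenic mouse 4 lay above 3 control mice. The mean was 330 ± 126 on the control diet and 209 ± 72.2 on the ketogenic diet, and the fitted ratio was 0.634. A log2 fold change of -0.66 ± 0.27 had an unadjusted p of 0.0315 and an adjusted p of 0.227, and the exact permutation test gave p = 0.103. Over all alternatives the log2 fold change of Ciita ranged from -0.88 to -0.18 with adjusted p between 0.113 and 0.976.

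Members differed in how closely they followed each other from mouse to mouse. Over the 10 mice, Pearson's r of log2 CPM was 0.95 for H2-Aa with H2-Ab1, 0.96 for H2-Ab1 with H2-Eb1 and 0.82 for Tap1 with Tap2, while Tap1 had 0.16 with H2-D1 and 0.16 with Cd74. Cd74 had 0.97 with B2m and 0.96 with H2-K1, above its 0.90 with H2-Aa, 0.76 with H2-Ab1 and 0.81 with H2-Eb1. Tap2 had 0.82 with H2-Ab1 as well. Ciita had 0.69 with H2-Aa, 0.69 with H2-Ab1 and 0.70 with H2-Eb1. These are descriptions over 10 libraries that share their scaling. The genes most like the mean of H2-Aa, H2-Ab1, H2-Eb1 and Cd74 among 12326 other tested genes were Syngr2 (0.95), Gm6204 (0.93), Gng11 (0.93), Igkc (0.92), which encodes the immunoglobulin kappa constant region, and Cdk6 (0.92). For the mean of H2-K1, H2-D1 and B2m they were Esam, an endothelial adhesion molecule, Crip2, Nr4a1, Gpx1 and Clic1, all at 0.99. Effective library size itself had r of -0.97 with the class I mean and -0.76 with the class II mean.

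The CD31+ preparations held endothelial RNA throughout, with Cdh5, the junctional cadherin of ECs, at 7583 ± 323 and 7358 ± 311 normalized counts and Cldn5 at 2397 ± 70.4 and 2400 ± 203. None of the 10 endothelial markers was called. Markers of cells that carry class II were also read, and some of them differed between the diets. Over all tested genes 1.34% were called in either direction and 0.527% were called lower on the ketogenic diet. Of 6 leukocyte markers, 6 had a log2 fold change below 0 and 1 was called, Laptm5 (2190 ± 383 against 1454 ± 206, log2 fold change -0.59, adjusted p = 0.0415), while Tyrobp had 225 ± 147 against 164 ± 74.3 (adjusted p = 0.594). The summed leukocyte markers ranged from 390 to 767 CPM on the control diet and from 289 to 443 CPM on the ketogenic diet.

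Among 5 B cell markers, 5 were below 0 and 1 was called, the antigen receptor subunit Cd79a (634 ± 78.2 against 460 ± 17.0, log2 fold change -0.46, adjusted p = 0.0221), while Cd79b had 842 ± 153 against 682 ± 44.5 (adjusted p = 0.179). Their sum ranged from 255 to 372 CPM on the control diet and from 201 to 247 CPM on the ketogenic diet, with no overlap. Macrophage markers (9 tested, 7 below 0, none called) summed to between 178 and 699 CPM on the control diet and between 162 and 333 CPM on the ketogenic diet, and Lyz2 had 1327 ± 368 against 978 ± 225 and Cd14 468 ± 187 against 546 ± 197. Among 7 tested dendritic cell markers, of which 1 had a mouse without reads, Mgl2 and Cd209a were called higher on the ketogenic diet (log2 fold changes 2.89 and 2.01, adjusted p = 0.00378 and 0.0250), both named after their values were seen; the 2 with the highest RPKM, Ccr7 (1357 ± 242 against 1022 ± 147) and Zbtb46 (1173 ± 136 against 1251 ± 73.5), had adjusted p = 0.125 and 0.556.

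The part of these cells in the class II values was not tested, and in bulk RNA fewer cells of a type and less RNA per cell cannot be told apart. The B cell score of each mouse (the mean of its z-scores) was between 0.0227 and 1.67 on the control diet and between -1.04 and -0.189 on the ketogenic diet, so score and diet cannot be told apart. With this score as a covariate, added after the data had been seen, H2-Aa was at 0.01, Cd74 at 0.03 and H2-Eb1 at 0.09 on the log2 scale. The class I genes H2-K1 (0.005) and B2m (0.003) also turned above 0, but small differences in them are not detectable apart from library size. Whether the shift was particular to class II was not tested. H2-D1, H2-Ab1, Tap1, Tap2 and Ciita stayed below 0, and no gene of the table was called. With the score of the leukocyte, macrophage and dendritic markers instead, H2-Aa was at -0.10, H2-Ab1 at -0.13, H2-Eb1 at -0.11 and Ciita at -0.55, none called. Cardiomyocyte markers were above 0 in 8 of 8 (median 0.34, Actc1 0.35, Pln 0.25). In edgeR 6 of the 8 were higher at an unadjusted p under 0.05, against 8.57% of all tested genes. None was called (lowest adjusted p = 0.0572). In 2 of the 8 the diets did not overlap. The share of all tested genes higher without overlap is not given here. Fibroblast markers were above 0 in 4 of 5 (median 0.11, highest 0.31, Dcn -0.05, Lum 0.02). Markers of T and natural killer cells were above 0 in 5 of 5 tested (Cd3e 0.11, Cd3g 0.22). Those of mural cells were below 0 in 5 of 5 (Rgs5 -0.06, Acta2 -0.06). The fibroblast, T and natural killer, and mural lists also held no called gene.

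Beyond the members, 44 of 50 other genes of the pathway were tested and none was called, with 27 below and 17 above 0 and a median log2 fold change of -0.03. At an unadjusted p under 0.05, 6 were lower and 3 higher, against 9.26% and 8.57% of all tested genes. H2-Q1, H2-Q10, H2-T3, H2-M2, H2-M5 and H2-Eb2 had too few reads, with at most 22 in any mouse.

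Class II accessory genes had the lowest median of the 6 lists, -0.40 over 7 tested genes, all 7 below 0 and 4 of them lower at an unadjusted p under 0.05. H2-Ob, a chain of the H2-O molecule that restrains class II loading and is known mainly from B cells, had 850, 630, 723, 716 and 651 normalized counts in the control mice and 579, 510, 559, 630 and 440 in the ketogenic mice. Every ketogenic mouse lay below every control mouse, control mouse 2 and ketogenic mouse 4 being nearly equal at 630. This held for 1 of the 44 genes, a share near the 1.94% of all tested genes. Its log2 fold change was -0.39 ± 0.10 (unadjusted p = 0.00266, adjusted p = 0.0836). DESeq2, which called 816 of all 15949 tested genes against 213 by edgeR, gave an adjusted p of 0.0123. H2-DMb2, a chain of the peptide exchange factor H2-M, had 464, 297, 386, 370 and 258 against 240, 231, 272, 292 and 233 normalized counts, with a log2 fold change of -0.48 ± 0.15 (adjusted p = 0.118; DESeq2 adjusted p = 0.0333). These values stand beside the B cell markers given above, whose part in them was not tested.

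The other chains of H2-M, H2-DMa and H2-DMb1, were highest in control mouse 4. H2-DMa had 478, 364, 576, 781 and 399 normalized counts against 495, 355, 460, 423 and 501 (log2 fold change -0.22 ± 0.19, adjusted p = 0.577), and -0.02 without control mouse 4. H2-DMb1 had 178, 164, 175, 308 and 105 against 220, 153, 154, 131 and 124 (-0.25 ± 0.25, adjusted p = 0.633), and 0.01 without control mouse 4. Ctss, the protease that trims the invariant chain, had 1320, 284, 614, 538 and 485 against 433, 374, 447, 741 and 438 (-0.41 ± 0.34, adjusted p = 0.557). Its value rested on control mouse 1, without which the log2 fold change was 0.02, and which also had the highest summed macrophage markers of the control mice.

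Loading factors and proteases of the class I route stayed close to 0. Of 6 loading genes 5 were below and 1 above 0 (median -0.02), with Canx, a chaperone of newly made heavy chains, at 5253 ± 129 and 5513 ± 141 normalized counts (log2 fold change 0.07 ± 0.03, adjusted p = 0.213), Calr at 3186 ± 114 and 3022 ± 114 (-0.08 ± 0.04, adjusted p = 0.298) and tapasin (Tapbp) at 4341 ± 215 and 4142 ± 148 (-0.07 ± 0.04, adjusted p = 0.391). The 5 immunoproteasome genes were all below 0 (median -0.08): Psmb8 had 1383 ± 79.9 and 1312 ± 38.3 (adjusted p = 0.415), Psmb9 1654 ± 206 and 1553 ± 58.0 (adjusted p = 0.541), and the activator Psme1 1459 ± 71.3 and 1380 ± 46.0 normalized counts (adjusted p = 0.355). Each of the 5 immunoproteasome genes was highest in control mouse 4. Deposited counts of Tapbp (4135 to 4365 reads), Calr (3019 to 3197) and Psme1 (1352 to 1490) varied little between mice. Their log2 ratios of unscaled mean counts were -0.0006, -0.01 and -0.01, which limits what their fold changes show apart from library size. Deposited counts of Canx (4925 to 5857) and Psmb9 (1433 to 1899) varied more.

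Nonclassical class I genes, 11 of 16 tested, had a median of 0.02, with 8 above 0. Mr1, which shows microbial vitamin metabolites to T cells, had 788 ± 46.5 and 935 ± 148 normalized counts (log2 fold change 0.25 ± 0.10, unadjusted p = 0.0268, adjusted p = 0.212), and H2-T24 had 1594 ± 160 and 1804 ± 130 (0.18 ± 0.07, unadjusted p = 0.0271, adjusted p = 0.213). All 50-base windows of Mr1 and 96.8% of those of H2-T24 were unique to the gene. Among the classical chains 90.4% of the 50-base windows of H2-K1 and 87.2% of those of H2-D1 were unique, the rest being shared mainly with H2-Q genes and with each other, so reads of the H2-K1, H2-D1 and H2-Q genes could be split between them.

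**Figure D3:**
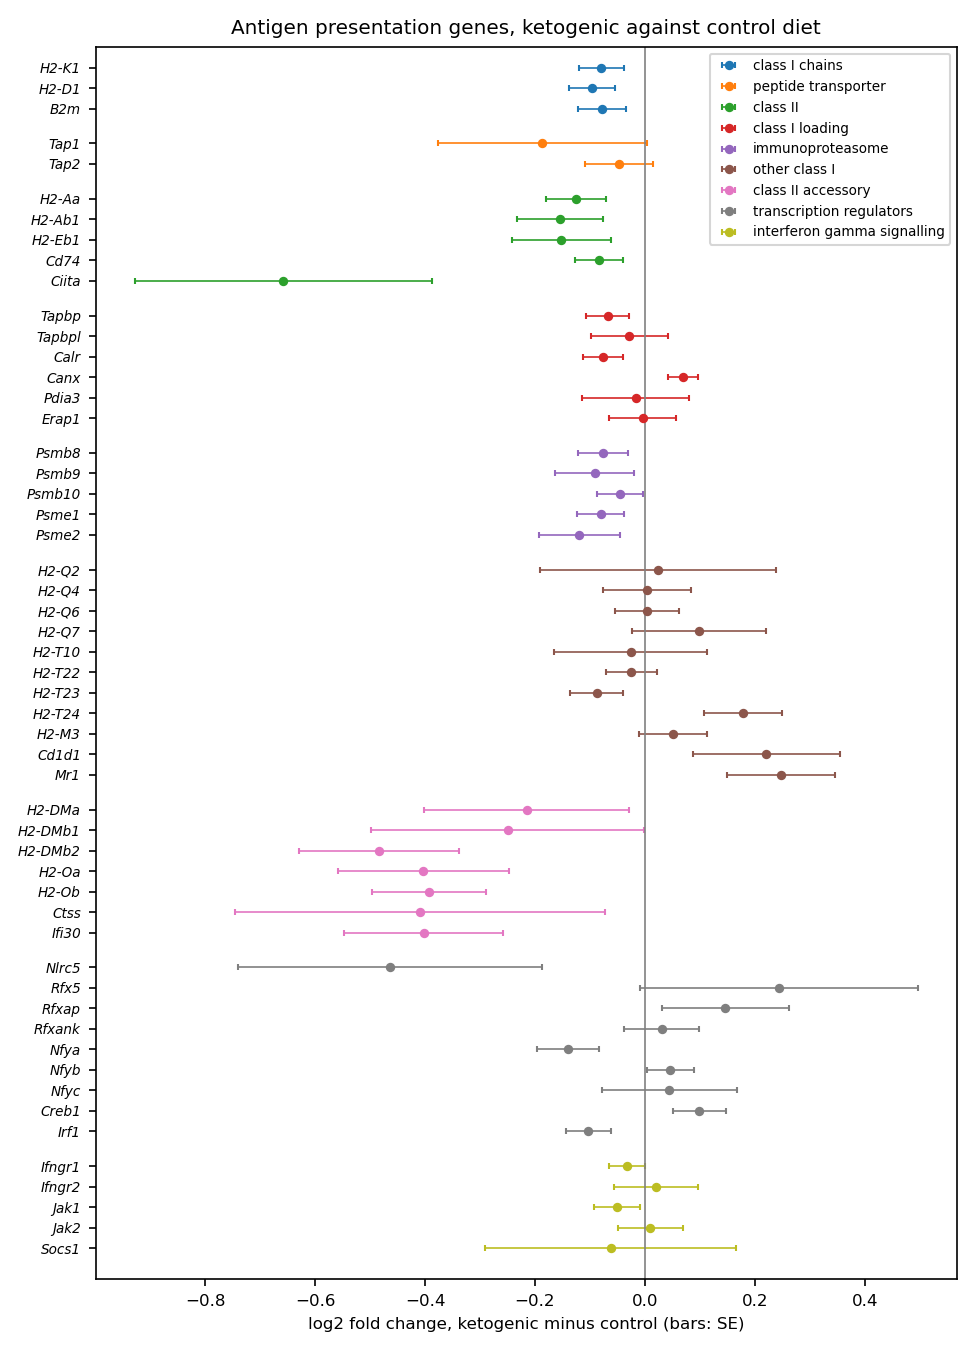
Log2 fold change (ketogenic minus control, edgeR) with its SE for the 10 members and 43 other tested genes of the pathway, colored by list. No gene passed the test; class II accessory genes lie left of 0, with a median of -0.40, and nonclassical class I genes on both sides.

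Among 10 transcription regulators, with a median of 0.04, 4 were below and 6 above 0. Nlrc5, the coactivator of class I genes, had 453, 429, 539, 1264 and 446 normalized counts in the control mice and 485, 479, 408, 384 and 510 in the ketogenic mice. As with Tap1, control mouse 4 lay far above the rest. For Nlrc5 the log2 fold change was -0.46 ± 0.28 (adjusted p = 0.407), and -0.04 without control mouse 4. Irf1, an interferon-induced activator of both classes, had 4393 ± 119 and 4091 ± 243 normalized counts (-0.10 ± 0.04, adjusted p = 0.209). Its deposited counts varied little between mice (4098 to 4399 reads), with a log2 ratio of unscaled mean counts of -0.04. This limits what the fold change of Irf1 shows apart from library size. The NF-Y subunit Nfya had 605 ± 28.0 and 549 ± 27.4 normalized counts (-0.14 ± 0.06, adjusted p = 0.226). The 5 genes of interferon gamma signalling lay between -0.06 and 0.02, among them the receptor chain Ifngr1 (3651 ± 136 and 3570 ± 96.8, adjusted p = 0.644) and the kinase Jak1 (4341 ± 219 and 4193 ± 192, adjusted p = 0.563).

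Control mouse 4 had the highest value of all mice in 5 of the 10 members (Tap1, Tap2, H2-Ab1, H2-Eb1 and Ciita) and in 17 of the 44 other tested genes of the pathway, against 10.7% of all tested genes. Control mouse 1 was the highest in the other 5 members, in 5 of the 7 class II accessory genes and in 7 of the 44. In control mouse 4 the normalized count was 2.71 times the mean of the other 4 control mice for Nlrc5, 2.03 times for Tap1, 1.75 times for Ciita and 1.72 times for H2-DMa. Of the 12378 tested genes averaging 50 reads or more, 183 reached 1.5 times. Genes most like Tap1 over the 10 mice, chosen after its values were seen, were Gbp6 (r = 0.97), Nampt (0.96), Gm12185 (0.96), Batf2 (0.95) and Gbp7 (0.94). The guanylate-binding protein Gbp6 had 666 normalized counts in control mouse 4, 282 ± 39.7 in the other 4 control mice and 289 ± 17.5 in the ketogenic mice. Without control mouse 4, as with all 10 mice, none of the 10 members was called.

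**Figure D4:**
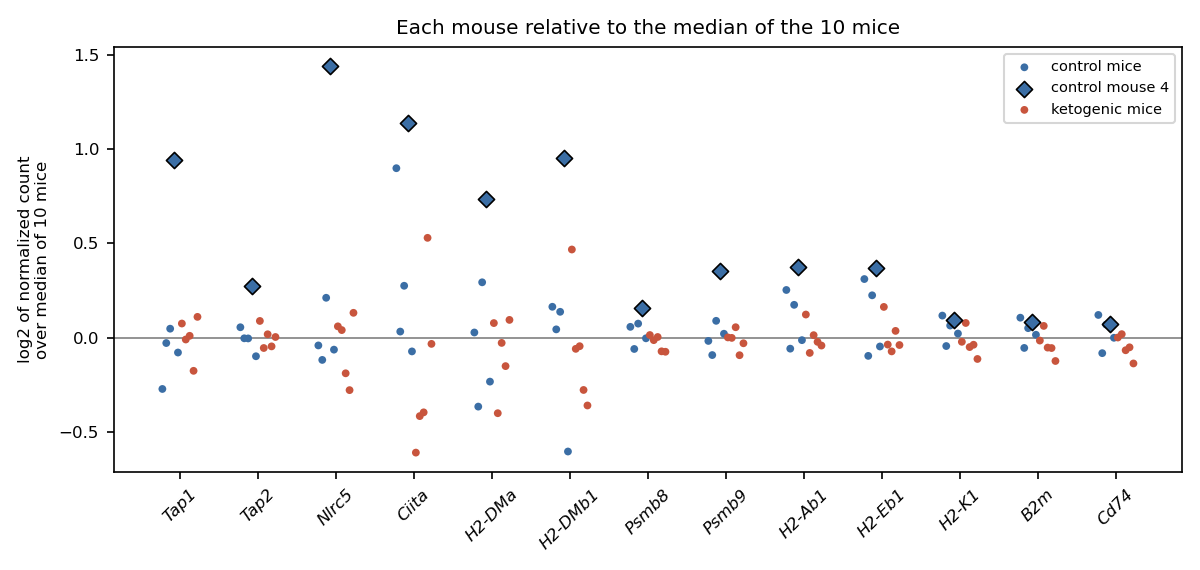
Log2 of the normalized count of each mouse over the median of the 10 mice for 13 genes; diamonds mark control mouse 4, circles the other mice by diet. Control mouse 4 is highest for Tap1, Nlrc5 and Ciita and lies among the other mice for H2-K1, B2m and Cd74. Deposited counts of H2-K1, B2m and Cd74 hardly varied between mice, which limits what they can show of a single mouse.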

How the data were processed

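RNA of CD31+ cardiac cells from 5 control and 5 ketogenic mice was amplified by the authors with a kit that does not record strand and read as single ends of 50 bases. The deposited counts are whole reads per Ensembl gene without normalization. The deposited RPKM values are the same counts scaled by the authors to gene length and to the counted reads of the library. The processing notes name STAR 2.3, HTSeq 0.6.0, bcl2fastq 2.17.1.14 and mm10, without roles; duplicate removal is not given in the sources used here. Totals were 10885154 to 12206734 reads per mouse on the control and 11108020 to 12710861 on the ketogenic diet.

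Symbols and positions came from GENCODE M21 on GRCm38, with 46488 of 46983 identifiers matched. Counts were normalized by TMM and tested with edgeR 4.0.16 in R 4.3.3 (filterByExpr, quasi-likelihood F-test, Benjamini-Hochberg over 15949 genes; adjusted p under 0.05 called). The study itself used DESeq2. Standard errors are the log2 fold change over the square root of F. Single genes and log2 ratios of RPKM were compared by two-sided exact permutation tests over all splits of the mice. The replicates are separate mice. No replicate pair agreed within sampling noise (chi-square per gene, 4.39 to 8.48). Promoters were searched in the RefSeq table on both strands.

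The genes named are the 10 members, per list of the pathway the 2 with the smallest p, 8 genes fixed by name, the 2 highest markers per cell type by RPKM, and the 5 genes most correlated with each class; others are said to be chosen after their values were seen. Members and lists were chosen with earlier results of these data known. Alternatives were DESeq2 1.42.0, limma 3.58.1 on log2(RPKM + 1) and log2(RPKM + 0.1), other scalings and filters, covariates, a correction for read start positions, the replicate number as a block, and each mouse left out. When the tests were run on simulated counts in which 200 genes had been changed, edgeR found 172 with 6 false calls among 15740 genes, DESeq2 181 with 28, and, among 15949 genes, limma 174 with 4. Values of 1 gene of the pathway lists are not reported here; it counts in the totals.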

Additional observations from a re-analysis of the deposited data

Results flagged for a closer look

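Within a diet of 5 mice, 4 of 62 sets of values had a mouse far from the others by Dixon's ratio (its gap to the nearest mouse over the whole range), where chance gives about 1 in 20, or 3.1. For Tap1, control mouse 4 had 4842 normalized counts and the other control mice 2084 to 2602 (ratio 0.812). For Nlrc5, control mouse 4 had 1264 and the others 429 to 539 (ratio 0.868). For Ctss, ketogenic mouse 4 had 741 and the others 374 to 447 (ratio 0.802). For the log2 ratio of H2-K1 to H2-D1, control mouse 2 had -1.20 and the others -1.15 to -1.13 (ratio 0.759).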

How the results depend on the processing

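None of the 10 members was called under any of the 23 alternatives, with adjusted p between 0.0891 and 0.997. Of 229 alternative log2 fold changes of members, 222 kept their sign. With the B cell score as a covariate (added after the data had been seen) it turned to 0.00504 for H2-K1, 0.00304 for B2m, 0.0144 for H2-Aa, 0.0940 for H2-Eb1 and 0.0318 for Cd74. With single mice left out Tap1 ranged from -0.282 to 0.0839 and Tap2 from -0.0822 to 0.0151, both above 0 without control mouse 4. Among other pathway genes, H2-DMb1 ranged from -0.401 to 0.00921 (without control mouse 4) and Ctss from -0.611 to 0.0219 (without control mouse 1), and Ctss was at 0.0205 with the leukocyte score. Pathway genes called were 0, but 2 of 44 with DESeq2 (H2-DMb2 and H2-Ob), which called 816 of all 15949 tested genes. With a mouse left out they were 0 to 1 (Irf1 without ketogenic mouse 2, adjusted p = 0.0406, where 492 of all genes were called). Members with an exact permutation p under 0.05 numbered 1, but 0 by library size alone, 0 on unscaled counts and 0 to 5 with a mouse left out. The share of all tested genes under this permutation test is not given here. The log2 difference of the H2-Aa to H2-Ab1 ratio ranged from -0.00640 to 0.0418, of Tap1 to Tap2 from -0.178 to 0.0704, and of H2-K1 to H2-D1 from 0.00566 to 0.0243 when mice were left out, with the signs of H2-Aa to H2-Ab1 and Tap1 to Tap2 turning without control mouse 4. Over all genes 213 were called, 816 with DESeq2, 19 with the cardiomyocyte score, 0 with the B cell score in edgeR (1339 at an unadjusted p under 0.05) and 86 (without control mouse 2) to 492 (without ketogenic mouse 2) with a mouse left out. Replicate numbers did not pair the mice (correlations of same-numbered deviations -0.13 to 0.09, none best with its own number). The replicate block gave 113 called genes and 0 members. It changed no call of a member or pathway gene. The causes were not tested. Counts of B2m, H2-K1 and Cd74 varied less within a diet than random sampling of reads gives, and small changes in them were not detectable apart from library size. The same limit bears in lesser degree on H2-D1 and H2-Aa.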

Other observations

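Outside the lists, 4 of the genes with a high ratio of control mouse 4 to the other control mice are given here, chosen after their values were seen from a longer series that also held Cma1, Tpsb2 and Adh6b. Gbp10, a guanylate-binding protein, had 425 normalized counts in control mouse 4 and 20.5 to 73.6 in the other 9 mice, Ido1, which breaks down tryptophan, 653 against 111 to 211, Batf2 1344 against 287 to 457, and the nucleic acid sensor Zbp1 630 against 135 to 340. Irf1 was at 1.02 times the mean of the other control mice. Its deposited counts lay between 4098 and 4399 reads in all mice, which limits what this ratio can show of a single mouse. None of the 4 genes with a high ratio was called between the diets (adjusted p from 0.273 for Ido1 to 0.680 for Zbp1).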
